A study of Mus musculus with 39 samples.

Results

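Mice fed a high-fat diet together with 75 µg of KAL-1 (HF75) were compared with mice fed the same high-fat diet alone (HFC) in their subcutaneous adipose tissue. The comparison used the arrays taken every 3 weeks from Week 3 to Week 18, which gave 6 HF75 arrays and 6 HFC arrays, 12 of the 39 arrays in the series, set side by side in pairs of the same week. Both groups were C57BL/6J mice that had been weaned at 3 to 4 weeks of age and placed at random into groups of 30, of which 5 mice were killed every 3 weeks. The diet they shared was rich in sucrose and drew 60% of its calories from fat, and KAL-1, an aqueous botanical formulation, set HF75 apart from HFC. The other diets of the series, used below for ranks and doses, were a low-fat diet with 10% of calories from fat (LFC) and the high-fat diet with 5 µg (HF5) or 20 µg (HF20) of KAL-1. Each week had 1 array per diet, whereas the design text of the series speaks of 3 biological replicates for every diet. Whether an array held the RNA of 1 mouse or a pool of several is not stated, so that n may count pools. A difference at a single week therefore had no replicate check, and n counts arrays. The spread behind the paired tests of HF75 against HFC is that of their difference between weeks.

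White fat stores triglyceride in adipocytes, which take up fatty acids, make new ones from glucose and release them again by lipolysis. The spaces between the adipocytes hold progenitor cells and fibroblasts, which lay down collagen, together with vessels, macrophages and lymphocytes. Macrophages gather in fat under a rich diet, and the hormone leptin is made by adipocytes in proportion to the fat they hold. Measured levels in such a tissue follow both the number of cells of a type and the RNA in each cell, and a smaller share of a cell type cannot be told apart from less RNA per cell.

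The tissue label was set against marker genes first. All 15 adipocyte markers were well above background, that is clearly brighter than the surface around the spot, on all 12 arrays. Of 8 liver markers, 0 were above background on all 12 arrays, but 2 were above it on all 6 HFC arrays. The mean level of the 3 liver markers that passed the filter on dim genes was 0.21 on the HFC array of Week 3. On the other 5 HFC arrays it was between -5.69 and -2.68, and the part of these transcripts in the Week 3 differences was not tested. Between 49.3% (HF75, Week 3) and 68.9% of the spots of an array were well above background, and the 75th percentile lay between 320.5 and 1285 scanner units of intensity. The HF75 and HFC arrays had been scanned on the same day in 5 of 6 weeks and on different days in Week 6, and those of Week 12 shared a slide. In Week 12 the LFC, HF5 and HF20 arrays were scanned on another day than HF75 and HFC, so that in ranks among the 5 diets for that week scan day and diet cannot be told apart. In Week 6 HF75 and HF20 shared a scan day, and the other 3 diets shared another. Levels are given on the log2 scale relative to the 75th percentile of the array, so that a level of 0 is that percentile and a difference of 1 is a doubling of intensity.

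The HF75 array of Week 3 stood apart. Its mean level over 35 skeletal muscle markers was 6.84, while the other 5 HF75 arrays lay between -3.28 and -0.77 and the 6 HFC arrays between -4.12 and -1.06. The 5 markers with the highest level on that array were Ckm at 7.93, Mb at 7.83, Myh1 at 7.77, Acta1 at 7.67 and Mylpf at 7.60, which encode the muscle creatine kinase, myoglobin, a fast myosin heavy chain, skeletal actin and a myosin light chain. All 5 probes were saturated there, so that their true levels may have been higher. Muscle markers were what set this array apart, so their difference is a description. Without Week 3, 29 of 34 tested were higher and 5 lower in HF75, with a median of 0.84, against 35 of 35 and 2.48 with it. The Week 3 median of 10.84 set probes that were partly saturated against HFC levels that were partly at background, so that its size is not exact. Oxidative phosphorylation genes, which muscle expresses strongly, had 28 of 28 members higher in HF75 with a median of 0.48, and the median was 0.15 without Week 3. Most differences over the 6 weeks are therefore given below together with values that leave out the pair of Week 3.

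**Figure D1:**
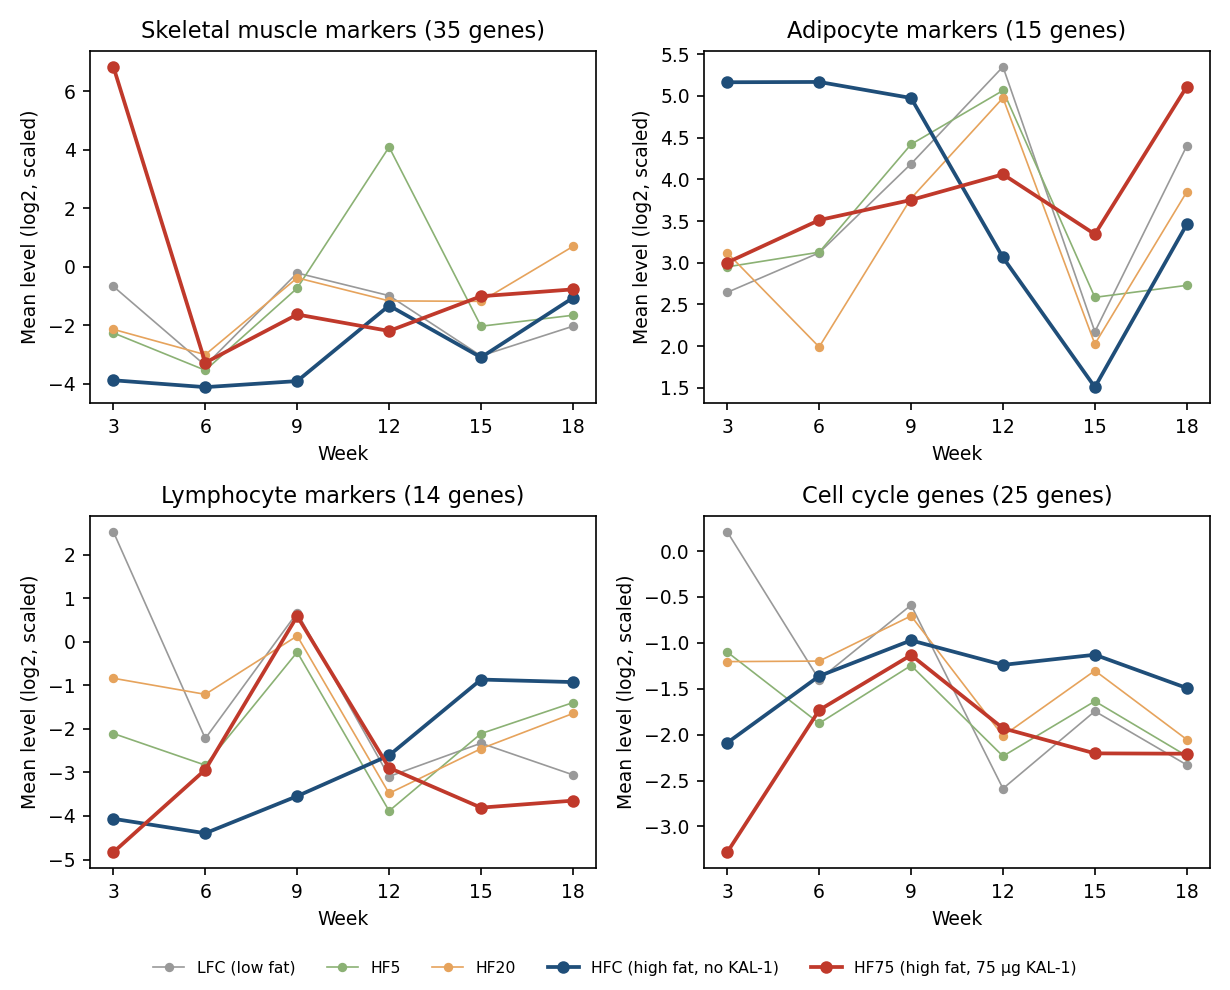
Mean level of 4 gene lists on each array of Week 3 to Week 18, with the week on the horizontal axis and the mean log2 level relative to the 75th percentile of the array on the vertical axis. Each point is 1 array, thick lines join the HF75 and HFC arrays, and thin lines join the LFC, HF5 and HF20 arrays of the same weeks. The muscle markers reached 6.84 on the HF75 array of Week 3, and the HFC line for adipocyte markers ran from 5.16 in Week 3 to 1.51 in Week 15.

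No single gene passed the test across all genes. In limma with the week as a block, 0 of 18567 genes had an adjusted p under 0.05 (0% of those tested), the smallest adjusted p was 0.931, and 684 genes had an unadjusted p under 0.05. Of these, 308 were higher in HF75 (1.66% of the genes tested) and 376 were lower (2.03%), so 45.0% of them were higher, against 65.9% with normexp background correction, which moved the median of all genes to 0.13. Without Week 3 limma called 0 of 18702 genes (0%) and had 657 at an unadjusted p under 0.05, of which 398 were higher (2.13%) and 259 lower (1.38%), and the share higher was 60.6%, or 71.6% with normexp. The unpaired t-test named by the methods also gave 0 genes after adjustment, with 403 at an unadjusted p under 0.05 and 434 without Week 3. The median difference of all genes tested was -0.01. In what follows, counts of members with an unadjusted p under 0.05 are set beside these shares, and no member of any list passed after adjustment.

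Cell cycle genes were the list with the most members lower in HF75 at an unadjusted p under 0.05. Of 25 members tested, 24 were lower, 13 of them at an unadjusted p under 0.05 (background 2.03%), and the median difference was -0.85. Without Week 3, 23 of 25 were lower, 13 of them at an unadjusted p under 0.05 (background 1.38%), with a median of -0.70, and 11 members met this in both fits. The median of the list was below 0 in each of the 6 weeks, from -1.76 in Week 3 to -0.40 in Week 6. These are genes of DNA copying and of chromosome separation, most of which are switched on together late in the cycle of a dividing cell.

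Ccnb2, a mitotic cyclin, ranged from -2.77 to 0.08 on the HF75 arrays with a median of -1.45, and from -0.61 to 0.78 on the HFC arrays with a median of -0.05. It was lower in HF75 in 6 of 6 weeks while the ranges of the groups overlapped, and the mean difference was -1.43 (SE 0.32, limma unadjusted p 0.00237), or -1.28 (SE 0.32) without Week 3. Cdc2a, the older name of Cdk1, the kinase that mitotic cyclins switch on, ranged from -5.65 to -3.18 with a median of -4.32 in HF75 and from -3.29 to -2.26 with a median of -2.99 in HFC. Only the ends of these ranges overlapped, and the difference was -1.47 (SE 0.33), with -1.20 (SE 0.27) without Week 3, and 5 of 6 HF75 arrays were above background. Ccna2, the cyclin of DNA synthesis and the entry to mitosis, differed by -1.37 (SE 0.29) and Birc5, which encodes survivin of the chromosomal passenger complex, by -1.09 (SE 0.27), both lower in 6 of 6 weeks, and without Week 3 the differences were -1.21 and -0.90. Ccnb1 differed by -1.12 (SE 0.32) and Kif20a, a motor of cell division, by -1.08 (SE 0.26), or by -1.02 and -1.12 without Week 3.

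The 8 genes with the smallest p among those lower in all 6 weeks and above background on at least 4 arrays of each group included Pbk, Nuf2, Cdca3 and Cdca8, which were in no list and are named here with no count of such genes over all genes. Pbk, a mitotic kinase, differed by -1.60 (SE 0.31), Nuf2, a kinetochore protein, by -1.44 (SE 0.31), Cdca3 by -1.32 (SE 0.30) and Cdca8, another subunit of the chromosomal passenger complex, by -1.17 (SE 0.24). Without Week 3 these were -1.46, -1.26, -1.20 and -1.06 in the same order. For Cdca8 the lowest, median and highest levels were -2.40, -1.19 and -0.14 in HF75 and -0.65, 0.00 and 0.50 in HFC. The member that went the other way was Kif11, a spindle motor, which was higher by 2.63 (SE 0.93), or 2.96 (SE 1.07) without Week 3, and was above background on only 4 HF75 arrays and 2 HFC arrays. Bub1b, a checkpoint kinase, differed by -0.92 (SE 0.51) with Week 3 and by -1.41 (SE 0.35) without it.

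Among the 5 diets the HFC mean of the list was 4th, 2nd and 3rd highest in Weeks 3, 6 and 9 and the highest in Weeks 12, 15 and 18, while HF75 was 5th, 4th, 4th, 2nd, 5th and 3rd from Week 3 to Week 18, and the first places of HFC and HF75 in Week 12 followed the split in scan day. The cell cycle genes were dim on these arrays, and the size of their difference depended on how background was handled. With normexp the median of the list was -0.16, against 0.13 for all genes, and 3 members were lower at an unadjusted p under 0.05, while Ccnb1 (0.11) and Bub1b (0.34) had the opposite sign. Of the 12 members that were well above background on every array, 5 were lower at an unadjusted p under 0.05. With the methods' t-test the count was 8, and leaving out any 1 week gave 10 to 13.

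**Figure D2:**
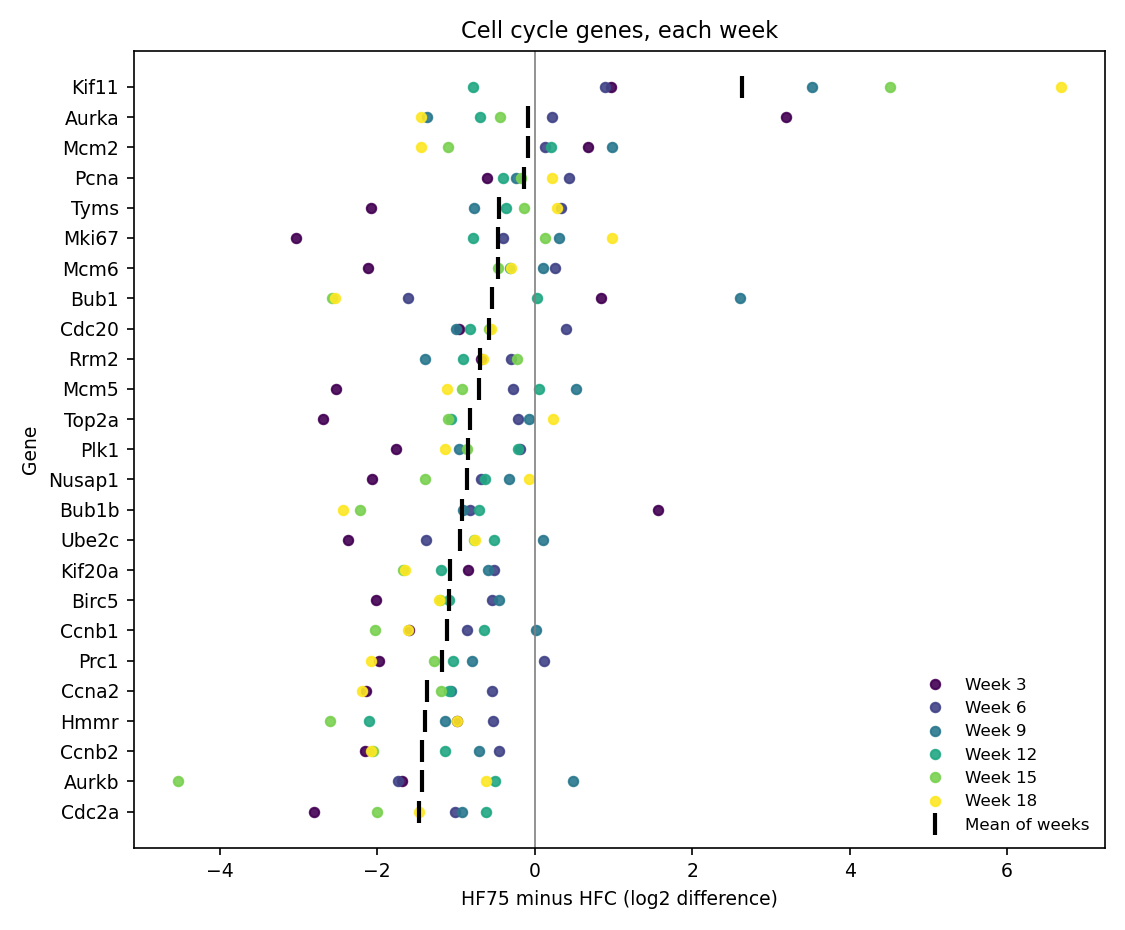
Difference between HF75 and HFC for each of the 25 cell cycle genes, with the log2 difference on the horizontal axis and the genes, ordered by their mean, on the vertical axis. Each dot is the pair of arrays of 1 week and each black mark is the mean of the 6 weeks, which lies below 0 for 24 of the 25 genes.

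The promoters of the list were read from RefSeq (GRCm38.p6) in windows from 250 bases before to 50 bases after the start of each gene. The motif counts do not depend on the levels in HF75 or HFC, and so do not bear on the direction of the differences. Windows were found for 22 of the 25 genes, 1 of which was matched through an older name. The CCAAT box, searched as CCAAT on both strands, was in 20 of their 23 windows (87.0%), and in 37.4% of all 32851 windows. The letters TTTGAA, a core of the cell cycle homology region, searched on both strands, were in 14 windows (60.9%), and in 17.9% of all windows. A match describes the letters in the window and is not by itself a site that a factor uses. The 120 bases before the start are shown for 4 of the genes above, 5′ to 3′ on the strand of the gene, with matches to either motif in capitals (ATTGG is CCAAT on the other strand).
Cdk1 (Cdc2a on the array): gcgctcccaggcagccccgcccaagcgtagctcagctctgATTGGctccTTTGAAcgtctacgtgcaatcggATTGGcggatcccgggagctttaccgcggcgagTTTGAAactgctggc
Ccnb1: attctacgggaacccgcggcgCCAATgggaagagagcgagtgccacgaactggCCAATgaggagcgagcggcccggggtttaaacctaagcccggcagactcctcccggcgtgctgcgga
Ccnb2: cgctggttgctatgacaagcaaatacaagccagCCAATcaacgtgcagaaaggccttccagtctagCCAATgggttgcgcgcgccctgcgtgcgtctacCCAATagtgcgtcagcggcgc
Cdca8: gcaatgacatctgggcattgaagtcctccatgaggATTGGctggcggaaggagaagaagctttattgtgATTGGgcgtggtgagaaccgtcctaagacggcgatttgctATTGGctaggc
Ccnb2 and Cdca8 held 3 CCAAT boxes in this stretch, Cdk1 and Ccnb1 held 2, and Cdk1 alone of the 4 held TTTGAA, in 2 places. Cdca8 was not in the list of 25. The same stretch of Birc5 and of Nuf2 held 0 matches to either motif, so that the 4 shown were picked for their matches.

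The adipocyte genes had a median difference near 0 over all 6 weeks that hid opposite signs in the earlier and the later weeks. The median of the 15 adipocyte markers was -0.18, or 0.28 without Week 3, made up of weekly medians of -3.44, -2.12 and -1.44 in Weeks 3, 6 and 9 and of 1.13, 1.38 and 1.95 in Weeks 12, 15 and 18. Of the 15 members, 13 were on average lower in HF75 in the first 3 weeks and higher in the last 3. The difference of Weeks 12 to 18 from Weeks 3 to 9 was fitted as a term of its own, and limma called 0 of 18567 genes for it (0%), with a smallest adjusted p of 0.0899 and 1852 genes at an unadjusted p under 0.05, 797 with a higher (4.29%) and 1055 with a lower (5.68%) difference in the later weeks. For the adipocyte list, 12 of 15 members had a higher difference in the later weeks at an unadjusted p under 0.05, and 13 of 15 without Week 3, with 1 member lower in each fit, where the background was 5.14% higher and 9.05% lower. With all 5 diets in the fit, the term set HF75 against all the other diets together and not against HFC alone. In that fit 1 of 15 members had a higher difference at an unadjusted p under 0.05.

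Lep, which encodes leptin, had a lowest level of -2.23, a median of -1.36 and a highest level of 0.16 on the HF75 arrays, against -4.35, 0.67 and 3.10 on the HFC arrays. The HF75 arrays thus lay within the range of the HFC arrays, which was far wider, and the difference was -4.05 on average in Weeks 3 to 9 and 1.20 in Weeks 12 to 18, with -4.57 in Week 6 and -2.73 in Week 9 once Week 3 is set aside. The change between these periods was 5.25 (SE 0.76, limma adjusted p 0.187). Adipoq, which encodes the hormone adiponectin, went from -2.05 to 2.51 (change 4.56, SE 0.75, limma adjusted p 0.198), and was at -2.21 in Week 6 and -1.85 in Week 9, with 2 HFC arrays saturated. Scd1, the desaturase that makes oleate, went from -3.12 to 1.45, with -3.45 and -2.20 in Weeks 6 and 9. Fasn, the fatty acid synthase, went from -0.97 to 1.55, with -1.68 and -0.05 in the same weeks. Cfd, which encodes adipsin, did not share the pattern, with differences of 0.77 and 0.97 in the same periods, but it was saturated on 4 of 6 arrays of each group.

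Slc7a10, Fam110c and Gm8528 had the smallest p for this period term, and all had a limma adjusted p of 0.0899. Slc7a10, an amino acid transporter of adipocytes, differed by -4.33, -3.41 and -2.67 in Weeks 3, 6 and 9 and by 2.28, 3.46 and 2.85 in Weeks 12, 15 and 18, which gave a change of 6.33 (SE 0.61). For Fam110c it was 8.53 (SE 0.72) and for Gm8528 -6.01 (SE 0.59), but these were well above background on only 3 and 2 of the 6 HF75 arrays, so that both sizes rest partly on levels at background. With normexp 65 genes passed for this term, 53 higher and 12 lower in the later weeks, where the median of all genes was -0.34. In that fit the share higher among genes at an unadjusted p under 0.05 was 18.1%, against 43.0% without the correction and 58.8% with quantile normalization.

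Lists of lipid handling followed the adipocytes, except for fatty acid oxidation in Week 3 and for cholesterol synthesis, and they shared members with the adipocyte markers. Fatty acid synthesis had 13 of 17 members with a higher difference in the later weeks at an unadjusted p under 0.05 and none lower, or 11 of 16 and none without Week 3, with weekly medians of -2.50, -1.75, -0.73, 0.88, 1.03 and 0.95. Fatty acid uptake and triglyceride synthesis had 8 of 15 higher and 2 lower, or 9 and 2 without Week 3, and lipolysis had 7 of 13 higher, or 8 without Week 3. Among members picked after their values were seen, Adrb3, the beta-adrenergic receptor of fat, went from -3.77 in the first 3 weeks to 2.50 in the last 3 (change 6.27, SE 0.64, limma adjusted p 0.0899), and Plin1, which coats the lipid droplet, from -3.14 to 1.77. In Weeks 6 and 9 Adrb3 differed by -3.41 and -2.98 and Plin1 by -3.13 and -2.01. Both are adipocyte markers as well, so that the lists are not independent of each other. Fatty acid oxidation had 4 of 16 members higher and 0 lower for the same term, or 10 and 0 without Week 3. Its weekly medians were 0.93, -0.91, -0.47, 0.84, 0.83 and 1.39. Cholesterol synthesis did not switch in this way, with 2 of 22 members higher and 0 lower for the same term, or 3 and 0 without Week 3. The background for each of these counts is the 4.29% higher and 5.68% lower given above, or 5.14% and 9.05% without Week 3.

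The opposite pattern was seen in some lists of other cells of the tissue and not in others. Endothelial markers had 5 of 14 members with a higher difference in the later weeks at an unadjusted p under 0.05 and 0 lower, or 2 and 0 without Week 3, and smooth muscle and pericyte markers had 0 of 8 either way. Progenitor and fibroblast markers had 11 of 16 members with a lower difference in the later weeks at an unadjusted p under 0.05, or 12 of 16 without Week 3. With all 5 diets in the fit, where the term set HF75 against all the other diets together, the count was 0. Their weekly medians were -0.90, 1.72, 1.24, -0.76, -1.30 and -2.88. Lymphocyte markers had 6 of 14 members lower, or 11 of 14 without Week 3, with weekly medians of -0.56, 2.02, 4.26, -0.24, -3.09 and -2.75 (backgrounds 5.68% lower and 9.05% without Week 3). Of the 20 lymphocyte markers on the array, 1 was well above background on all 6 HF75 arrays and 11 on all 6 HFC arrays, so that these differences rest partly on levels at background. Cd2, a T cell adhesion protein, differed by 3.77 in Week 9, -3.32 in Week 15 and -3.68 in Week 18. Collagens had 5 of 16 members lower, or 11 of 16 without Week 3. Several immune lists had few members lower with Week 3 and more without it. Resident macrophage genes went from 1 to 8 of 12, MHC class II genes from 3 to 7 of 9 and complement genes from 0 to 10 of 16. Chemokines and receptors went from 2 to 12 of 22, mast cell markers from 0 to 5 of 7, neutrophil markers from 0 to 6 of 8 and inflammatory macrophage genes from 0 to 5 of 12.

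**Figure D3:**
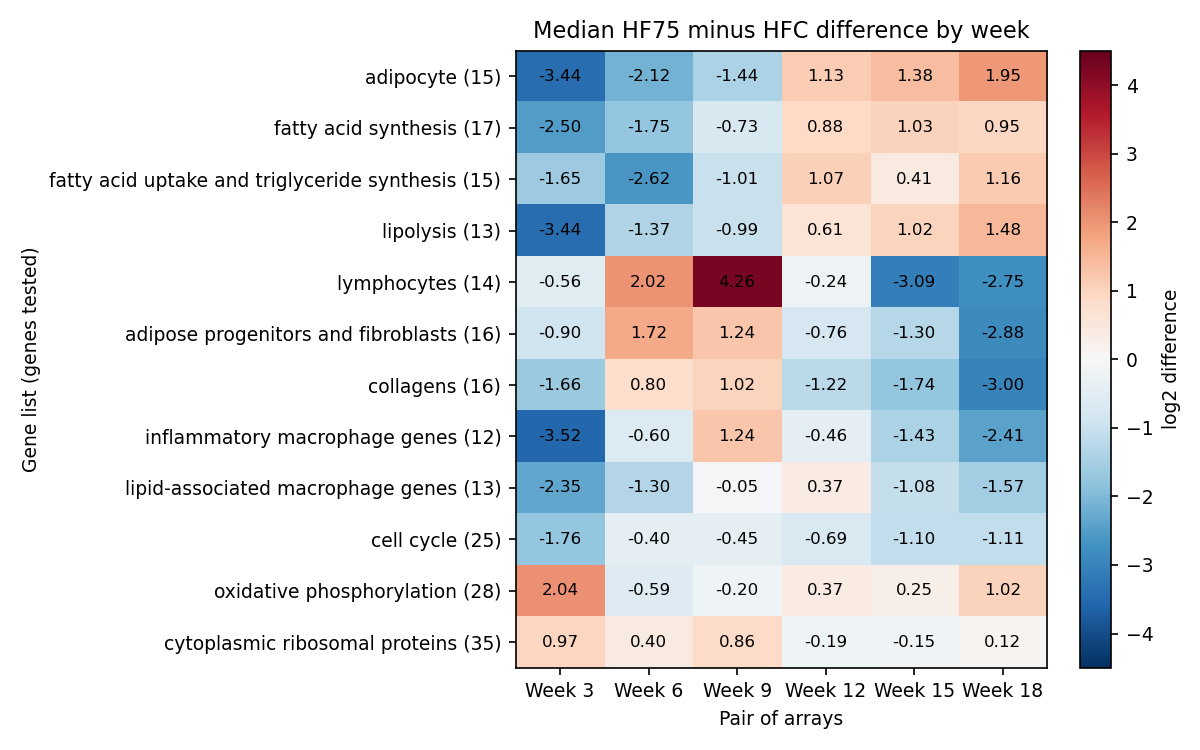
Median HF75 minus HFC difference of 12 gene lists in each week, with the weeks on the horizontal axis, the lists and their number of tested genes on the vertical axis, and the log2 difference as colour and number. The adipocyte and lipid lists turn from below 0 to above 0 between Week 9 and Week 12, and the cell cycle list is below 0 in every column.

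The HFC arrays spanned a wider range of adipocyte marker levels than the HF75 arrays. The mean level of the adipocyte markers on the HFC arrays was 5.16, 5.17 and 4.98 in Weeks 3, 6 and 9, the highest of the 5 diets in each of these weeks. In Weeks 12, 15 and 18 it was 3.06, 1.51 and 3.46, the lowest of the 5 diets in the first 2 of these and the second lowest in Week 18, and in Week 12 both arrays scanned apart from the other diets, HFC and HF75, took the lowest places. On the HF75 arrays it ran from 3.00 to 5.11, and was the lowest of the 5 diets in Week 9, at 3.75, and the highest in Weeks 15 and 18. The lymphocyte markers on the HFC arrays were the lowest of the 5 diets in Weeks 6 and 9, at -4.40 and -3.54, and the highest in Weeks 12, 15 and 18, at -2.61, -0.87 and -0.93, with HF75 next to HFC in Week 12, again along the split in scan day. The HF75 mean for these markers peaked at 0.59 in Week 9, when LFC, HF5 and HF20 lay between -0.24 and 0.67. The part that cell makeup had in the differences of single genes was not tested.

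Inflammatory and lipid-associated macrophage genes were mostly lower in HF75, and genes of resident macrophages had mixed signs without Week 3. Of 12 inflammatory macrophage genes, 11 were lower, 5 of them at an unadjusted p under 0.05 (background 2.03%), with a median of -1.35. Without Week 3, 10 of 12 were lower, 1 at an unadjusted p under 0.05 (background 1.38%), with a median of -0.63, and the median of the list was 1.24 in Week 9 and below 0 in the other weeks. The genes of lipid-associated macrophages, which collect around dying adipocytes, had 13 of 13 members lower and 4 at an unadjusted p under 0.05, with a median of -0.99. Without Week 3 it was 11 of 13 and 4, with a median of -0.64. Of 12 resident macrophage genes 10 were lower with a median of -0.51, but without Week 3 it was 7 lower and 5 higher with a median of -0.22, and 11 of 12 were higher in Week 6 and again in Week 9. Chi3l3, a chitinase-like protein of alternatively activated macrophages, differed by 1.08 (SE 0.93), and by 1.96 (SE 0.71) without Week 3.

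Itgax, which encodes the integrin CD11c of inflammatory macrophages and dendritic cells, had a lowest, median and highest level of -5.95, -2.24 and -0.65 in HF75 and of -2.38, -0.97 and 2.18 in HFC. It was lower in 5 of 6 weeks, the exception being Week 12, and the groups overlapped. The difference was -2.10 (SE 0.57), and -1.81 (SE 0.61) without Week 3. Trem2, a lipid receptor of macrophages, differed by -1.18 (SE 0.38) and by -1.08 (SE 0.43) without Week 3. Gpnmb differed by -2.12 (SE 0.63) and Tm7sf4, the older name of the cell fusion gene Dcstamp, by -1.98 (SE 0.58), both again higher in Week 12 alone, and without Week 3 the values were -2.04 (SE 0.74) and -1.97 (SE 0.69). The general macrophage marker Emr1 had a difference of -0.64 (SE 0.55), or -0.22 (SE 0.50) without Week 3, and Cd68, of the lysosome, by -1.31 (SE 0.56), or -0.94 (SE 0.55) without Week 3.

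Cytokines named by the same rule also had mean differences below 0. Tnf differed by -1.39 (SE 0.52), Il1rn, which encodes the antagonist of the interleukin-1 receptor, by -1.95 (SE 0.63), and Il10, an anti-inflammatory cytokine, by -1.88 (SE 0.51). Without Week 3 the values were -1.29, -1.65 and -1.89. Ccl2, which draws monocytes into tissue, differed by -1.76 (SE 1.09), and this came largely from Week 3, where the HF75 array was at -1.83 and the other 5 HF75 arrays lay between 4.02 and 6.77. Without Week 3 its difference was -0.63 (SE 0.71), and 2 HFC arrays were saturated. Of 22 chemokines and receptors, 21 were lower, or 16 without Week 3, with a median of -1.01 that was -0.61 without Week 3, but 1 of the 22 had an unadjusted p under 0.05, near the background of 2.03%.

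Collagen genes, the main fibres of the matrix, were mostly lower in HF75. Of 16 collagens, 14 were lower, 6 at an unadjusted p under 0.05 (background 2.03%), with a median of -0.91, and without Week 3 again 14 were lower, 1 at an unadjusted p under 0.05 (background 1.38%), with a median of -0.78. The weekly median was -1.66 in Week 3, and the others were 0.80 and 1.02 in Weeks 6 and 9 and -1.22, -1.74 and -3.00 in Weeks 12, 15 and 18. Col6a1, a chain of the collagen around adipocytes, had a lowest, median and highest level of 0.25, 1.71 and 3.89 in HF75 and of 2.43, 3.57 and 4.36 in HFC. It differed by -1.64 (SE 0.68), or -1.54 (SE 0.80) without Week 3, with 1.46 in Week 9 as the one positive week. Col4a2, of the basement membrane, was lower in 6 of 6 weeks, with a difference of -0.90 (SE 0.30) and of -0.75 (SE 0.30) without Week 3.

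Genes that respond to TGF-beta and BMP signals had 21 of 24 members lower and 4 at an unadjusted p under 0.05, or 19 and 2 without Week 3 (backgrounds 2.03% and 1.38%). Chrdl1, which binds and blocks BMPs, was lower in all 6 weeks, with a difference of -1.78 (SE 0.52), and of -1.23 (SE 0.28) without Week 3. Thbs1, which frees TGF-beta from its latent form, differed by -1.60 (SE 0.66), or -0.95 (SE 0.46) without Week 3.

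The ranges of HF75 and HFC did not overlap at all for 14 genes. Of these, 13 were lower in HF75 (0.07% of the genes tested) and 1 was higher (0.00539%), and without Week 3 the counts were 45 lower (0.241%) and 11 higher (0.0588%). The higher one was Cep63, a centrosome gene named here after its values were seen, with means over 6 arrays of 2.53 (SD 0.50) in HF75 and 1.96 (SD 0.07) in HFC. Gm12387 was above background on 0 of 6 HF75 arrays, so that no fold is given for it. Anxa1, an annexin that restrains inflammation, had a lowest, median and highest level of 2.36, 4.66 and 5.44 in HF75 and of 5.44, 5.69 and 6.16 in HFC. All 6 HF75 arrays lay below all 6 HFC arrays, by a very small margin, and the difference was -1.34 (SE 0.39), or -0.98 (SE 0.28) without Week 3. Plagl1, an imprinted zinc finger gene, ran from -1.18 to 0.72 in HF75 and from 0.74 to 2.54 in HFC, with a difference of -1.61 (SE 0.41), or -1.29 (SE 0.35) without Week 3. Sod3, the superoxide dismutase outside the cell, ran from -5.91 to -3.49 and from -3.30 to -2.43, with a difference of -1.37 (SE 0.37), or -1.03 (SE 0.26) without Week 3, that was 0.00702 with normexp.

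**Figure D4:**
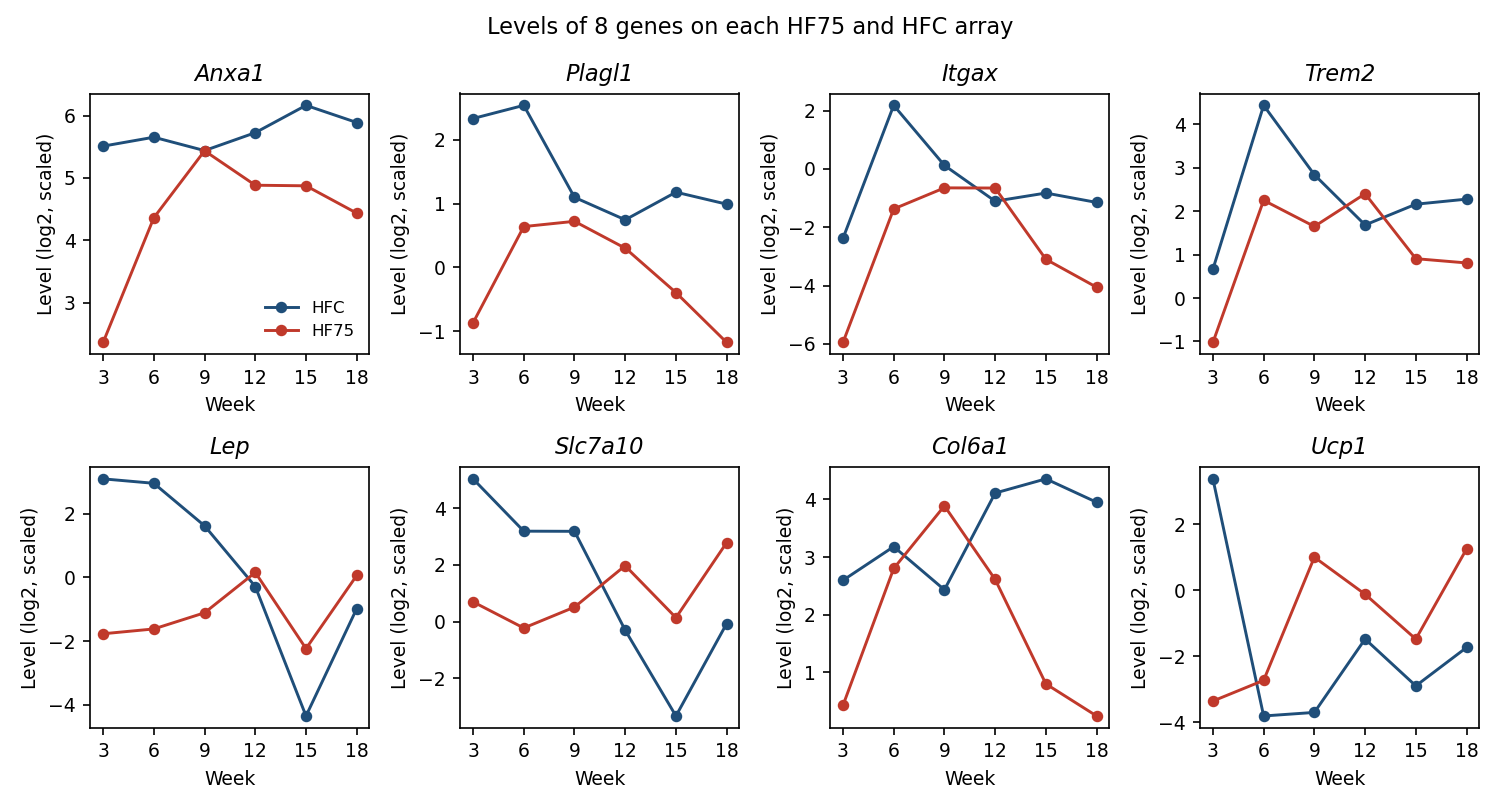
Levels of 8 genes by week, with the week on the horizontal axis and the log2 level relative to the 75th percentile of the array on the vertical axis. Each point is 1 HF75 or HFC array. Anxa1 and Plagl1 are lower in HF75 in every week without overlap between the groups, the lines for Lep and Slc7a10 cross between Week 9 and Week 12, and the Ucp1 lines cross between Week 3 and Week 6.

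Hk2, a hexokinase that traps glucose in cells, had the smallest p among genes with the same sign in the 5 weeks after Week 3 and above background on at least 3 arrays of each group, at -1.57 (SE 0.24, limma unadjusted p 0.000495) on those weeks. In Week 3 its HF75 array was the highest of the 6 at 5.37, so that the difference with that week was -1.23 (SE 0.36). Ucp1, which lets brown and beige fat make heat, had a lowest, median and highest level of -3.36, -0.80 and 1.25 in HF75 and of -3.81, -2.32 and 3.37 in HFC. Its difference was 0.80 (SE 1.31) with Week 3, where the HFC array held the 3.37, and 2.31 (SE 0.58) without it. Of the 12 thermogenic genes tested, 7 were higher with Week 3, with a median of 0.52, and 11 without it, with a median of 0.56, and Ucp1 was the single member at an unadjusted p under 0.05 (background 2.13%).

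Genes tied to the growth of fat did not share 1 direction. In the list of secreted Frizzled proteins and fat expansion, 6 of 7 members tested were lower with a median of -1.07, or 5 of 7 with -0.82 without Week 3, but 3 of the 7 were higher in Week 6 and 3 in Week 9. For the period term 3 members were higher and 2 lower at an unadjusted p under 0.05, both with and without Week 3. Mest, Sfrp5 and Bmp3 were lower on average in the first 3 weeks, and in Weeks 6 and 9 Mest differed by -2.81 and -2.79, Sfrp5 by -3.52 and -2.66 and Bmp3 by -3.30 and -1.72. Mest, an imprinted gene tied to the enlargement of adipocytes, had a lowest, median and highest level of -0.69, 1.05 and 1.28 in HF75 and of 0.38, 2.92 and 4.62 in HFC. Its difference was -3.64 on average in Weeks 3 to 9 and -0.19 in Weeks 12 to 18, a change of 3.45 (SE 0.86, limma adjusted p 0.311), and its overall difference was -1.91 (SE 0.74), or -1.23 (SE 0.59) without Week 3. Sfrp5, which binds Wnt proteins, had differences of -2.51 and -0.42 in the same periods, and its overall difference was -1.47 (SE 0.54), -1.49 (SE 0.64) without Week 3 and 0.17 with normexp, with 3 of 6 HF75 arrays above background. Bmp3, a member of the BMP family, had differences of -2.95 and -0.69, with an overall difference of -1.82 (SE 0.53) and -1.42 (SE 0.48) without Week 3.

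Of the other genes lower in all 6 weeks, Sox11, a transcription factor of progenitor cells, had the smallest p at -1.40 (SE 0.24, limma unadjusted p 0.00042), or -1.35 (SE 0.23) without Week 3, but was dim and had the opposite sign with normexp (0.086). Fosl1, a subunit of AP-1, differed by -1.75 (SE 0.38), and C6, of the complement attack complex, by -1.80 (SE 0.39), or by -1.42 and -1.59 without Week 3. Pla2g2e, a secreted phospholipase A2, differed by -1.68 (SE 0.43), and by -1.26 (SE 0.27) without Week 3. Of the 8 genes with the smallest p among those higher in all 6 weeks and above background on at least 4 arrays of each group, 4 were above background on all 12 arrays. Tacc2, a centrosome protein, was one of them and ran from -0.63 to 3.23 in HF75 and from -1.86 to 1.33 in HFC, with a difference of 2.69 (SE 0.64), or 2.52 (SE 0.74) without Week 3. AI854703 was another and differed by 1.95 (SE 0.41), or 1.75 (SE 0.44) without Week 3. Gsg1l (3.08, or 3.43 without Week 3) and Kcnmb2 (1.38, or 1.34), also among the 8, were above background on 4 of the 6 HFC arrays. Sbk2 (3.00, or 2.73), named for its p without Week 3, was above it on 3, so that these differences rest partly on levels at background.

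Some other lists can be given by their counts. Of 11 genes named whatever their values, picked with earlier results of these data known, 8 were lower with a median of -1.31 and 4 at an unadjusted p under 0.05 (background 2.03%). Without Week 3 again 8 were lower, with a median of -0.63, and 1 was lower and 1 higher at that p (backgrounds 1.38% and 2.13%). Hypoxia response genes had 3 of 15 members lower at an unadjusted p under 0.05, with a median of 0.06, or 2 with a median of 0.027 without Week 3. Adipokines had 2 of 12 lower and 1 higher at that p, or 1 and 0 without Week 3. All 19 genes of endoplasmic reticulum stress were lower in HF75, with a median of -0.37, or -0.23 without Week 3, and 1 member had an unadjusted p under 0.05 in each fit. Ribosomal protein genes had 32 of 35 members higher, with a median of 0.34, or 0.22 without Week 3, and 0 members at an unadjusted p under 0.05. Their median was 0.078 with normexp and -0.016 with quantile normalization, so that its direction depends on the scaling, and it was below 0 in Weeks 12 and 15. Immediate-early genes had 20 of 21 members lower, or 17 without Week 3, with a median of -0.73, but the median was -0.19 without Week 3, and the weekly median was -3.42 in Week 3. The circadian clock list had 10 of 14 members lower with a median of -0.39, or 12 with -0.30 without Week 3, and 1 of 14 members at an unadjusted p under 0.05.

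The doses were then set against each other in a fit of HFC, HF5, HF20 and HF75, which shared the same weeks. For HF75 against HF20, limma called 0 of 20548 genes, with 646 at an unadjusted p under 0.05 and 378 to 4277 under 8 alternatives. The HF20 array of Week 15 stood apart with 4936 outlier spots and 87.8% of spots well above background, and the count was 379 when Week 15 was left out. For HF75 against HF5 it called 0 of 20548, with 504 at an unadjusted p under 0.05 and 195 to 1284 under the alternatives, and the HF5 array of Week 12 had a muscle marker mean of 4.09. Leaving out Week 12 gave the 1284. These counts do not show that the doses acted alike.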

How the data were processed

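Total RNA of subcutaneous adipose tissue had been labelled with Cy3 and hybridised to Agilent 1-colour arrays. Per the file headers, the deposited array files hold spot intensity values from Agilent Feature Extraction 10.5.1.1 (the submitters' processing notes name 9.1), background-subtracted and not normalized between arrays, with flags of 0 or 1 for each spot. The authors also deposited a table of log2 ratios in which the LFC array of each week is the reference, made with GeneSpring GX, which served as an alternative.

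Here the log2 processed intensity minus the 75th percentile of its array was used, without spots flagged as outliers, and spots of a probe were averaged. Of the probes of a gene, the one with the highest mean was kept. Genes well above background on at least 6 of 12 arrays (5 of 10 without Week 3) were tested with limma 3.58.1 in R 4.3.3, two-sided, with the week as a block and Benjamini-Hochberg adjustment at 0.05. The week pairs HF75 and HFC arrays by design. Mice were killed at each time, so arrays of different weeks hold different animals, but an array may be 1 animal or a pool. P-values of the paired HF75 and HFC fits measure the spread of the difference between weeks. Those of the dose fit, the fit of all 5 diets and the unpaired t-test rest on the spread of their own arrays. The number of arrays limits the precision. The members and gene lists, and the rule for the genes named, were chosen with earlier results of these data known. The rule took the smallest p among genes of 1 sign in all weeks (8 each way, 5 each way without Week 3), a list of 11 genes, members of lists at an unadjusted p under 0.05, the 3 smallest p of the other terms and the 5 brightest muscle genes of Week 3. The fits were tested on simulated data. Array annotation and RefSeq use different builds, so no coordinates are given.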

Additional observations from a re-analysis of the deposited data

Results flagged for a closer look

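One array of a group lay far from the other 5, by Dixon's ratio, in 29 of 236 sets of 6 arrays (lists and genes named in the report). Chance gives about 1 in 20 for a set picked without regard to its values, but the muscle list, Acta1, Myh1 and Mylpf were chosen for their levels on the HF75 array of Week 3 and the sets share arrays, so the count is a description only. The HF75 array of Week 3 was the one apart in 21 of them. Its mean level was high for hypoxia response (2.32), oxidative phosphorylation (6.52), skeletal muscle (6.84). It was low for the 11 genes always named (-0.93), adipogenic transcription factors (0.08), inflammatory macrophage genes (-3.84), chemokines and receptors (-2.97), interferon-stimulated genes (-2.08), matrix proteases and inhibitors (-0.69), TGF-beta and BMP response genes (-1.39), endoplasmic reticulum stress (0.53), immediate-early genes (0.42). Among genes it was high for Acta1 (7.67), Mylpf (7.60), Myh1 (7.77), Tcap (7.59), Hk2 (5.37) and low for Mest (-0.69), Ccl2 (-1.83), Ccl9 (-1.09), Anxa1 (2.36). The HFC array of Week 3 was high for cholesterol synthesis (0.70), thermogenic genes (0.94), Ucp1 (3.37) and low for Il10 (-3.91), Col4a1 (3.82). The remaining sets were the mean of antioxidant Nrf2 targets on the HFC array of Week 6 (2.0), the mean of lymphocytes on the HF75 array of Week 9 (0.59), Tacc2 on the HFC array of Week 12 (1.33).

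The median difference of 5 lists was below 0 in each of Weeks 3, 6 and 9 and above 0 in each of Weeks 12, 15 and 18. The middle value of the later weeks exceeded that of the earlier weeks by 1.59 for adipokines, 2.70 for fatty acid synthesis, 2.72 for fatty acid uptake and triglyceride synthesis, 2.38 for lipolysis, 3.49 for adipocyte markers. The difference between the periods was not tested for the lists as such.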

How the results depend on the processing

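The adjusted counts for HF75 against HFC were 0 under 20 alternatives with Week 3 and 19 without it, and 0 under 8 alternatives against HF20 and 8 against HF5. Their unadjusted counts ran from 333 to 1539 with Week 3 (333 when Week 15 was left out, 408 for Week 18, 1037 for Week 6, the week scanned on 2 days, 1221 for Week 9, and 1539 with array weights). Without Week 3 they ran from 265 (muscle mean as a covariate) to 1437, with 317, 418, 1055 and 1437 when Weeks 15, 18, 6 and 9 were also left out. Against HF20 the count was 378, 379 and 1570 when Weeks 3, 15 and 12 were left out, and against HF5 it was 1284 and 195 for Weeks 12 and 18. With no replicate block they were 435 and 474, and the block changed no adjusted call. The period term called 65 genes with normexp and 1 with array weights, and its unadjusted count was 910 and 1116 when Weeks 18 and 15 were left out, 4230 with normexp and 6755 with no filter on dim genes.

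Alternatives for counts of list members were chosen after seeing the data. Cell cycle members lower numbered 3 with normexp, 5 on genes above background on every array and 8 with the methods' t-test. With all 5 diets in the fit the period term set HF75 against all the other diets together, and its counts were 1 for adipocytes and 0 for progenitors. When 1 week was left out of the fit of HF75 and HFC, the progenitor count ran from 7 (Week 6, 15 or 18) to 12 (Week 3). With normexp the medians of all genes, the cell cycle list and the antioxidant Nrf2 targets were 0.13, -0.16 and -0.21, and the last was -0.20 with quantile normalization. The adipocyte median was 0.79 with array weights and 0.62 with the muscle mean as a covariate.

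With normexp the sign changed for Ccnb1 (0.11), Bub1b (0.34), Adipoq (-0.096), Gm8528 (0.42), Sfrp5 (0.17), Sod3 (0.00702), Sox11 (0.086). With quantile normalization the sign changed for Adipoq (-0.20), Fasn (-0.00366). With array weights the sign changed for Scd1 (0.35), Slc7a10 (1.48), Fam110c (1.11). With the muscle mean as a covariate the sign changed for Scd1 (0.067), Slc7a10 (1.00), Fam110c (0.39). When 1 week was left out, the sign changed for some weeks in Adipoq, Fasn and Slc7a10. Their lowest and highest values over the weeks left out were -0.53 and 0.71 for Adipoq, -0.00299 and 0.68 for Fasn, -1.06 and 0.50 for Slc7a10. The other 1017 values of named genes under alternatives kept their sign. The causes were not tested. The slide as a random block was not run, since the only slide with a pair of these arrays held 1 week, which the block takes up. Signal over background limits the dim genes most, and 12 of the 25 cell cycle genes were well above it on every array.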

Other observations

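Other genes and cell types gave single values. Krt20, a keratin of epithelia, was higher in HF75 in 5 of 6 weeks (1.17, SE 0.47, and 1.64, SE 0.30, without Week 3). Neutrophil markers had 7 of 8 members higher with a median of 0.63, and 8 of 8 with a median of 1.43 without Week 3. The weekly medians were 2.90 in Week 6, 4.14 in Week 9 and 1.25 in Week 15, and below 0 in the other weeks, with -3.57 in Week 3. With Week 3 kept, the median was 0.059 when Week 6 was left out and -0.19 when Week 9 was. Of the 9 neutrophil markers on the array, 2 were well above background on all 12 arrays, so that these differences rest partly on levels at background. Endothelial markers had 11 of 14 members lower with Week 3 and 2 of 14 lower without it. Mmp12, a macrophage elastase, differed by -2.17 (SE 1.04), and by -2.98 (SE 0.96) without Week 3, with 3 of 6 HF75 arrays above background.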
